A study of Mus musculus with 6 samples.

Results

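The genes described here encode the DNA replication machinery and the enzymes that supply it with deoxynucleotides. They were chosen by name from the counts table of C2C12 cells, a mouse myoblast line, by their known roles in origin licensing, the MCM and GINS helicase, polymerases, the clamp and its loader, dNTP synthesis, chromatin assembly and S-phase control. The table held 43074 gene symbols, and 17433 of them had enough counts to be tested. All 52 genes of the list were present and all 52 were tested. The cells were labelled WT, and RNA was sequenced from 3 groups of 2 libraries each. The first group was untreated cells at day 0. For the other groups, cells were moved to horse serum differentiation medium for 4 days, with DMSO added in one and 1 mM 4-PBA in the other. 4-PBA, or 4-phenylbutyric acid, is an aromatic fatty acid used as a histone deacetylase inhibitor and as a chemical chaperone. Day 0 had no vehicle group, so the change of medium, the time and DMSO cannot be told apart in any comparison with day 0. The labels do not say whether the libraries of a group came from separate cultures, so p-values measure the spread between these libraries only, which may be technical.

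Before S phase, the origin recognition complex (ORC) with Cdc6 and Cdt1 loads the MCM helicase onto DNA. Activation of the helicase needs Cdc45, the GINS complex and Mcm10, after which the polymerases copy the strands with the sliding clamp PCNA. Many of these genes are classical targets of the E2F transcription factors, whose activity is held down by the retinoblastoma family when myoblasts leave the cell cycle to form myotubes. In bulk RNA, fewer cells in S phase and less of each transcript per cell cannot be told apart, and this holds for every value below.

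Most genes of the list had lower expression at day 4 than at day 0, by unequal amounts. The promoters of the list are shown first. RefSeq promoter windows (build GRCm38.p6, from 250 bases before to 50 bases after the annotated start) were found by symbol for 44 of the 52 genes. Each window was searched on both strands for the 4 E2F-type words TTTCCCGC, TTTGGCGC, TTTCGCGC and TTTGCCGC, where overlapping matches at different positions were counted separately. At least 1 word was present for 18 of 44 (40.9%) of the replication genes, against 527 of 12189 (4.32%) of all tested genes with a window and 2.26% of all 32851 windows of that length. By role the words were found for 5 of 8 helicase genes, 4 of 7 primase and polymerase genes, 4 of 8 licensing genes and 0 of 4 dNTP synthesis genes. Some genes had more than 1 window (55 windows for the 44 replication genes), and a gene was counted if any window held a word. For Lig1, Uhrf1 and Dnmt1 only an additional window did. The start site of a window was the RefSeq gene boundary for 29 of the replication genes. A match is a run of letters, not a measured binding site, and a window without one says nothing about the factor.

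The 200 bases before the start site of Mcm5 (chr8:75109309-75109508, plus strand) and of Mcm6 (chr1:128359706-128359905, minus strand) are given 5′ to 3′ in the direction of the gene. They are shown because both hold a pair of overlapping words on opposite strands, and Mcm6 has another word closer to the start. Capitals mark the matched letters.
Mcm5: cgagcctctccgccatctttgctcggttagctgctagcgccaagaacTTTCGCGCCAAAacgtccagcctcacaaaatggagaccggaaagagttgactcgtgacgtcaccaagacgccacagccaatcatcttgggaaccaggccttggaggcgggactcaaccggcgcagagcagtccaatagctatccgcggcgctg
Mcm6: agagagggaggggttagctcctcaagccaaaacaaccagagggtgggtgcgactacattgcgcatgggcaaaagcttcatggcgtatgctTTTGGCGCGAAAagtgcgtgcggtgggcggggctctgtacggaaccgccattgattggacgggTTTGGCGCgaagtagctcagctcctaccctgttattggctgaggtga

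Another 6 genes with such a word were chosen for contrast. Cdc6, Orc1, Mcm7 and Gins3 fell by more than 2-fold with DMSO. Cdk2 and Orc3 are the 2 genes with such a word that changed little or rose. Shorter stretches of 30 bases around a match are given for all 6 genes. Their positions are chr5:138172030-138172059, minus strand for Mcm7, chr8:95633507-95633536, plus strand for Gins3, chr11:98908002-98908031, plus strand for Cdc6, chr4:108579416-108579445, plus strand for Orc1, chr4:34614965-34614994, minus strand for Orc3, and chr10:128705173-128705202, minus strand for Cdk2. Capitals again mark the matched word.
Mcm7: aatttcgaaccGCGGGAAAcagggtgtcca
Gins3: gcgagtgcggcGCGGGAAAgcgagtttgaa
Cdc6: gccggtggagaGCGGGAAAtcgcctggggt
Orc1: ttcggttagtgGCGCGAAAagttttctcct
Orc3: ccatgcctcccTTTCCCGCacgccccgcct
Cdk2: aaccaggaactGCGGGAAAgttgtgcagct

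Genes with and without a word had fallen by similar amounts. With DMSO the 18 genes that hold a word had a median log2 fold change of -1.63 against day 0, and the 26 without one had a median of -1.62, a description with no test. A second search used the cell cycle homology region (CHR) words TTTGAA and TTCGAA, known from genes of mitosis. They were found for 8 of 44 (18.2%) of the replication genes and 2073 of 12189 (17.01%) of all tested genes, against 16 of 22 (72.7%) of the genes in a list for mitosis. That mitosis list held an E2F-type word in 1 of 22 (4.55%).

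**Figure D1:**
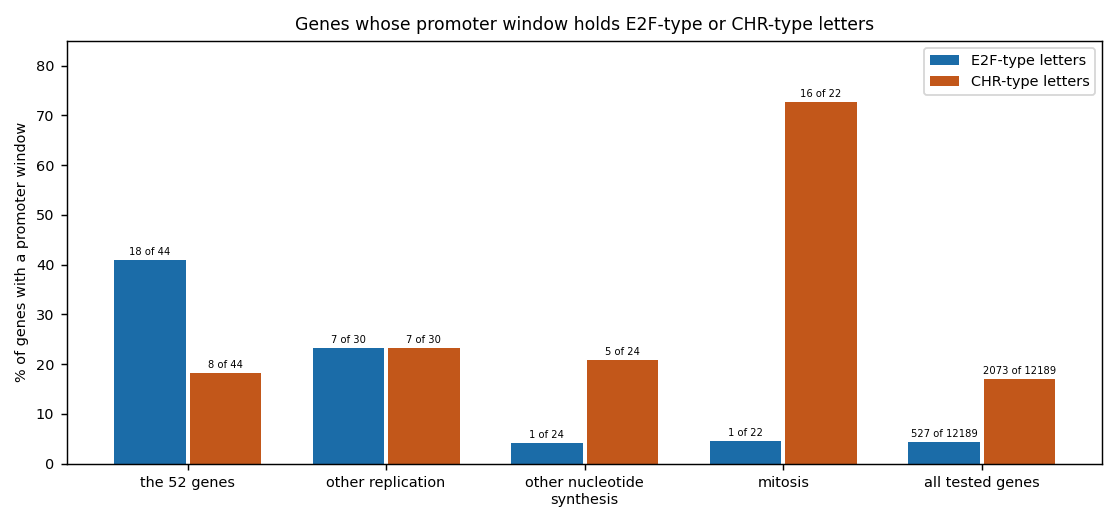
Share of genes (vertical axis, percent of genes with a RefSeq promoter window) whose window holds an E2F-type or a CHR-type word, for the 52 replication and nucleotide synthesis genes, 3 related lists and all tested genes; the numbers above the bars are genes. E2F-type words were found for 18 of 44 replication genes and CHR-type words for 16 of 22 mitosis genes.

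Total counts ran from 47908926 to 74697397 per library. The myoblast markers Myod1, Myf5, Des and Cdh15 were present in every library, with a summed level of 1314 to 2924 CPM (counts scaled to library size with TMM factors in edgeR). Their sum rose from a mean of 1321 CPM at day 0 to 2903 CPM with DMSO at day 4. In the same libraries 6 myotube markers together went from at most 90.7 CPM at day 0 to at least 4775 CPM at day 4. The endothelial, epithelial and adipocyte pairs of markers each summed to at most 0.576 CPM in any library, Ptprc had at most 3 counts, and Cd68 made up most of a leukocyte sum of 1.34 to 5.53 CPM. One feature of the libraries bears on the results for 4-PBA. In DMSO replicate 2, 47 of the 52 genes stood below DMSO replicate 1, with a median log2 difference of -0.14. Over all tested genes the median was -0.0047, and 48.4% were higher in replicate 2. The corresponding medians of the 52 genes were 0.0078 at day 0 and 0.030 with 4-PBA. Replicate 2 was higher for 29 and 33 of the 52, against 54.7% and 49.7% of all tested genes.

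After 4 days with DMSO the replication genes had fallen well below their day 0 level. Their summed expression was 5199.8 and 5256 CPM before differentiation, 1828 and 1689.8 in the DMSO libraries and 1924 and 1945 in the 4-PBA libraries. The group means were 5228 ± 39.95, 1759 ± 97.6 and 1935 ± 14.9 CPM (SD, n = 2), so that DMSO cells kept 33.6% and 4-PBA cells 37.01% of the day 0 sum. Between DMSO and day 0, edgeR called 51 of the 52 genes lower and 1, Orc3, higher; over all tested genes 32.6% were called lower and 33.8% higher. The median log2 fold change of the 52 genes was -1.63, a 3.11-fold fall, and that of all tested genes was 0.023. Of the 52, 44 fell by more than 2-fold, against 8.78% of all tested genes. For 50 genes both DMSO libraries lay below both day 0 libraries, compared with 39.9% of all tested genes.

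**Figure D2:**
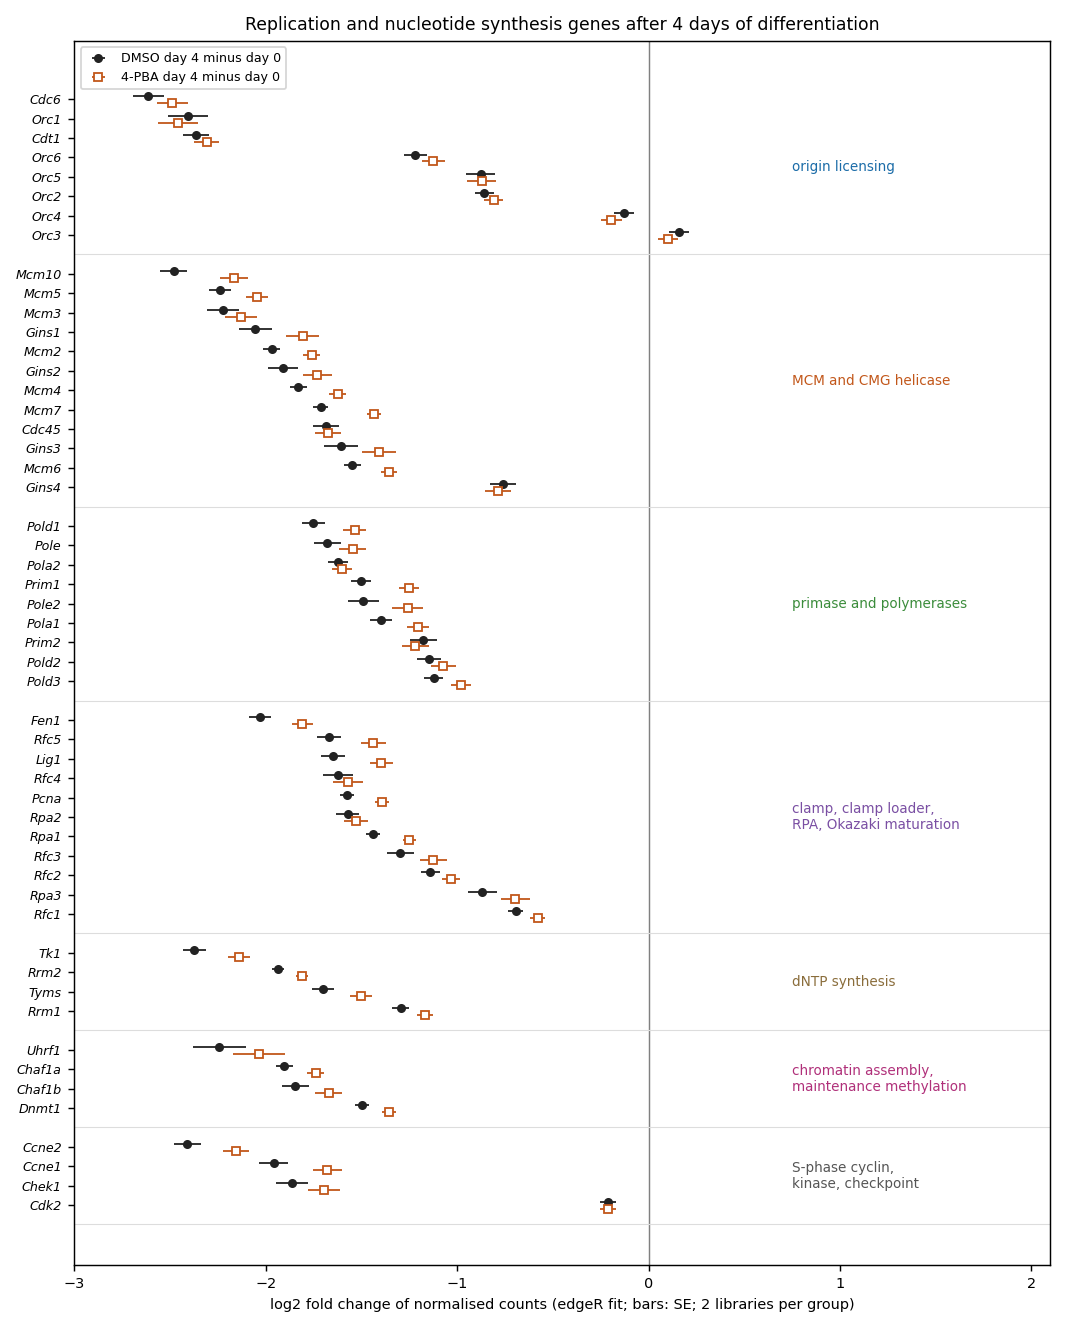
Log2 fold change (horizontal axis) of each of the 52 genes against day 0, with DMSO (filled circles) and with 4-PBA (open squares), ordered within 7 role groups; bars are standard errors of the edgeR fit on 2 libraries per group. With DMSO 51 genes lie below 0 and Orc3 above it, and the licensing genes spread from -2.61 for Cdc6 to 0.16 for Orc3.

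The 8 licensing genes covered the widest range of the 7 role groups. Cdc6, the ATPase that joins ORC to load MCM, stood at 50.02 and 48.5 CPM before differentiation, 9.02 and 7.16 in the DMSO libraries and 8.65 and 8.91 in the 4-PBA libraries. Every day 4 library lay below both day 0 libraries, and the fall with DMSO was the largest of the 52 genes (log2 change -2.61 with SE 0.0802, adjusted p 3.02e-24). Cdt1, its loading partner, and Orc1, the ORC subunit that comes and goes with the cell cycle, fell nearly as far (log2 fold changes of -2.37 with SE 0.0668, and -2.41 with SE 0.103). Orc6 followed at -1.22, and Orc5 and Orc2 at -0.88 and -0.86.

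Orc4 and Orc3, subunits of the ORC core, did not follow. Orc4 stood at 56.6 and 61.8 CPM before differentiation, 51.01 and 57.3 in the DMSO libraries and 51.4 and 52.4 in the 4-PBA libraries. Its DMSO and day 0 libraries overlapped and its call was small (log2 change -0.13 with SE 0.0529, adjusted p 0.0324). The call was lost without day 0 replicate 2 (-0.060, adjusted p 0.460), without DMSO replicate 1 (-0.049, adjusted p 0.444), without 4-PBA replicate 1 (-0.13, adjusted p 0.0547) and, with all libraries, in the DESeq2 Wald test (-0.14, adjusted p 0.0814). Orc3 stood at 43.8 and 49.04 CPM before differentiation, 51.3 and 52.5 in the DMSO libraries and 48.9 and 50.95 in the 4-PBA libraries, both DMSO libraries lying above both of day 0. It was called higher with DMSO (log2 change 0.16 with SE 0.0515, adjusted p 0.00747), though not without day 0 replicate 1 (0.079, adjusted p 0.279), and was not called with 4-PBA against day 0 (log2 change 0.10 with SE 0.0519, adjusted p 0.0868), where it was called without day 0 replicate 2 (0.19, adjusted p 0.0103) and in a fit of the day 0 and 4-PBA libraries alone (0.10, adjusted p 0.0488). The ratio of Orc3 to Orc1 counts was 1.76 and 2.13 in the day 0 libraries. It was 10.4 and 12.8 in those with DMSO and 10.3 and 12.9 in those with 4-PBA. The balance of these transcripts thus moved in each day 4 library. In the GENCODE M21 annotation the exons of Orc1, Orc2, Orc4 and Orc6 share bases with an opposite-strand gene and those of Orc5 with a same-strand gene, and since the use of strand in counting is not known their values are uncertain to that extent. The same holds for Cdc45, Gins2, Pole, Rfc2 and Rfc4 (opposite strand) and Pole2 (same strand).

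All 12 genes of the MCM and CMG helicase group fell, with a median log2 fold change of -1.87. Mcm10, which helps to start unwinding, fell furthest, standing at 51.7 and 53.02 CPM before differentiation, 10.1 and 8.67 in the DMSO libraries and 11.3 and 12.01 in the 4-PBA libraries (log2 change -2.48 with SE 0.0725, adjusted p 6.70e-26). Among the 6 subunits of the MCM ring the fall ran from -1.55 (SE 0.0428) for Mcm6 to -2.24 (SE 0.0577) for Mcm5. Mcm3 fell by a similar amount (-2.22 with SE 0.0834), followed by Mcm2 (-1.97 with SE 0.0445), Mcm4 (-1.83 with SE 0.0442) and Mcm7 (-1.71 with SE 0.0390).

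These unequal falls changed the order of the ring subunits on a scale of CPM per kilobase of merged exons (GENCODE M21). In both day 0 libraries Mcm3 was highest and Mcm4 lowest, and their ratio was 1.42 and 1.43. In all 4 day 4 libraries Mcm7 was highest and Mcm5 lowest, with ratios of 1.74 and 1.96 in DMSO cells and 1.92 and 1.99 in 4-PBA cells. The count ratio of Mcm6 to Mcm3, which needs no length, was 1.13 and 1.13 in the day 0 libraries, 1.73 and 1.88 in those with DMSO and 2.01 and 1.86 in those with 4-PBA. Exons of Mcm7 overlap Ap4m1 and Cops6 on the opposite strand, so its place in the order is uncertain.

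GINS, the 4-subunit complex that travels with MCM and Cdc45, also fell unevenly. Gins1 (-2.05 with SE 0.0855), Gins2 (-1.91 with SE 0.0774) and Gins3 (-1.61 with SE 0.0892) fell by more than 2-fold. Gins4 stood at 33.4 and 33.3 CPM before differentiation, 19.9 and 19.5 in the DMSO libraries and 18.1 and 20.5 in the 4-PBA libraries, a fall of less than 2-fold (log2 change -0.76 with SE 0.0668, adjusted p 2.57e-12). The Gins4 to Gins1 count ratio was 1.21 and 1.21 in the day 0 libraries, 2.80 and 3.14 in those with DMSO and 2.32 and 2.57 in those with 4-PBA. Its day 0 and day 4 libraries did not overlap. Cdc45 fell with a log2 fold change of -1.68 with SE 0.0659.

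The 9 primase and polymerase genes fell within a narrow range, from -1.75 for Pold1 to -1.12 for Pold3. Pold1, the catalytic subunit of polymerase delta, stood at 63.3 and 62.6 CPM before differentiation, 19.9 and 17.5 in the DMSO libraries and 22.2 and 21.3 in the 4-PBA libraries (log2 change -1.75 with SE 0.0602, adjusted p 8.11e-24). Pold3, an accessory subunit of the same enzyme, stood at 64.5 and 66.8 CPM before differentiation, 30.95 and 29.4 in the DMSO libraries and 34.2 and 32.4 in the 4-PBA libraries (log2 change -1.12 with SE 0.0514, adjusted p 3.78e-20). For both genes every day 4 library lay below the day 0 libraries. The catalytic subunits of the other replicative enzymes lay between them: Pole (-1.68 with SE 0.0707), Pola1 (-1.40 with SE 0.0572) and the primase subunit Prim1 (-1.50 with SE 0.0528).

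In the group of the clamp, its loader, the single-strand binding protein RPA and the enzymes that finish Okazaki fragments, 11 of 11 genes fell. Fen1, the flap nuclease, fell furthest, at 80.6 and 87.1 CPM before differentiation, 21.3 and 19.9 in the DMSO libraries and 22.8 and 25.2 in the 4-PBA libraries (log2 change -2.03 with SE 0.0570, adjusted p 2.48e-25). Rfc1, the large subunit of the clamp loader, stood at 98.5 and 97.7 CPM before differentiation, 60.8 and 60.4 in the DMSO libraries and 64.8 and 66.5 in the 4-PBA libraries and fell least of the group (log2 change -0.69 with SE 0.0409, adjusted p 5.11e-17). The small loader subunits Rfc2 to Rfc5 fell by 1.14 to 1.67 on the log2 scale, and the ratio of Rfc1 to Rfc5 counts was 1.86 and 1.75 in the day 0 libraries, 3.36 and 3.73 in those with DMSO and 3.36 and 3.18 in those with 4-PBA. Pcna fell with a log2 fold change of -1.58 with SE 0.0358, Lig1, the ligase of Okazaki fragments, with -1.65 with SE 0.0615, and Rpa1 with -1.44 with SE 0.0361. Rpa3, the smallest RPA subunit, fell less (-0.87 with SE 0.0757), and its ratio to Rpa1 was 0.112 and 0.106 in the day 0 libraries, 0.163 and 0.161 in those with DMSO and 0.148 and 0.172 in those with 4-PBA.

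Among the 4 genes of dNTP synthesis, Rrm2, the small subunit of ribonucleotide reductase, stood at 574 and 579 CPM before differentiation, 155 and 146 in the DMSO libraries and 165 and 164 in the 4-PBA libraries (log2 change -1.94 with SE 0.0322, adjusted p 4.30e-33). Tk1, the cytosolic thymidine kinase of S phase, stood at 142 and 146 CPM before differentiation, 30.3 and 25.4 in the DMSO libraries and 32.04 and 33.4 in the 4-PBA libraries and fell furthest of the 4 (log2 change -2.37 with SE 0.0593, adjusted p 6.39e-18). Rrm1, the large subunit of the reductase, stood at 254 and 262 CPM before differentiation, 111 and 98.9 in the DMSO libraries and 117 and 113 in the 4-PBA libraries and fell least (log2 change -1.30 with SE 0.0430, adjusted p 6.18e-17). Groups at day 0 and day 4 did not overlap for these 3 genes. Tyms, thymidylate synthase, fell with a log2 fold change of -1.70 with SE 0.0571. The Rrm1 to Rrm2 count ratio was 0.443 and 0.452 in the day 0 libraries, 0.720 and 0.675 in those with DMSO and 0.706 and 0.691 in those with 4-PBA.

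The genes that rebuild chromatin behind the fork fell as well. Uhrf1, which brings the maintenance methyltransferase to newly copied DNA, stood at 239 and 244 CPM before differentiation, 57.4 and 44.9 in the DMSO libraries and 57.7 and 60.1 in the 4-PBA libraries. Its DMSO libraries lay apart from each other, which gave the widest standard error of the 52 genes in this comparison (log2 change -2.24 with SE 0.137, adjusted p 5.75e-04). Dnmt1, that methyltransferase, stood at 245 and 245 CPM before differentiation, 89.4 and 84.2 in the DMSO libraries and 96.2 and 95.3 in the 4-PBA libraries (log2 change -1.50 with SE 0.0357, adjusted p 1.48e-28), and the chromatin assembly factor genes Chaf1a (-1.90 with SE 0.0447) and Chaf1b (-1.85 with SE 0.0705) lay between them.

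Of the S-phase regulators, Ccne2, a cyclin E that activates Cdk2, stood at 50.1 and 47.8 CPM before differentiation, 9.35 and 9.09 in the DMSO libraries and 11.2 and 10.8 in the 4-PBA libraries (log2 change -2.41 with SE 0.0698, adjusted p 5.09e-26). Ccne1, the other cyclin E, fell with a log2 fold change of -1.96 with SE 0.0745, and Chek1, the replication checkpoint kinase, with -1.86 with SE 0.0845. Cdk2 itself stood at 77.00 and 79.6 CPM before differentiation, 65.8 and 69.4 in the DMSO libraries and 67.4 and 67.8 in the 4-PBA libraries. It fell in both DMSO libraries but by a small amount (log2 change -0.21 with SE 0.0427, adjusted p 4.78e-05), so the ratio of Cdk2 to Ccne2 counts was 1.54 and 1.66 in the day 0 libraries, 7.04 and 7.64 in those with DMSO and 6.03 and 6.29 in those with 4-PBA. Differences between the falls of 2 genes were described by these ratios and were not tested.

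**Figure D3:**
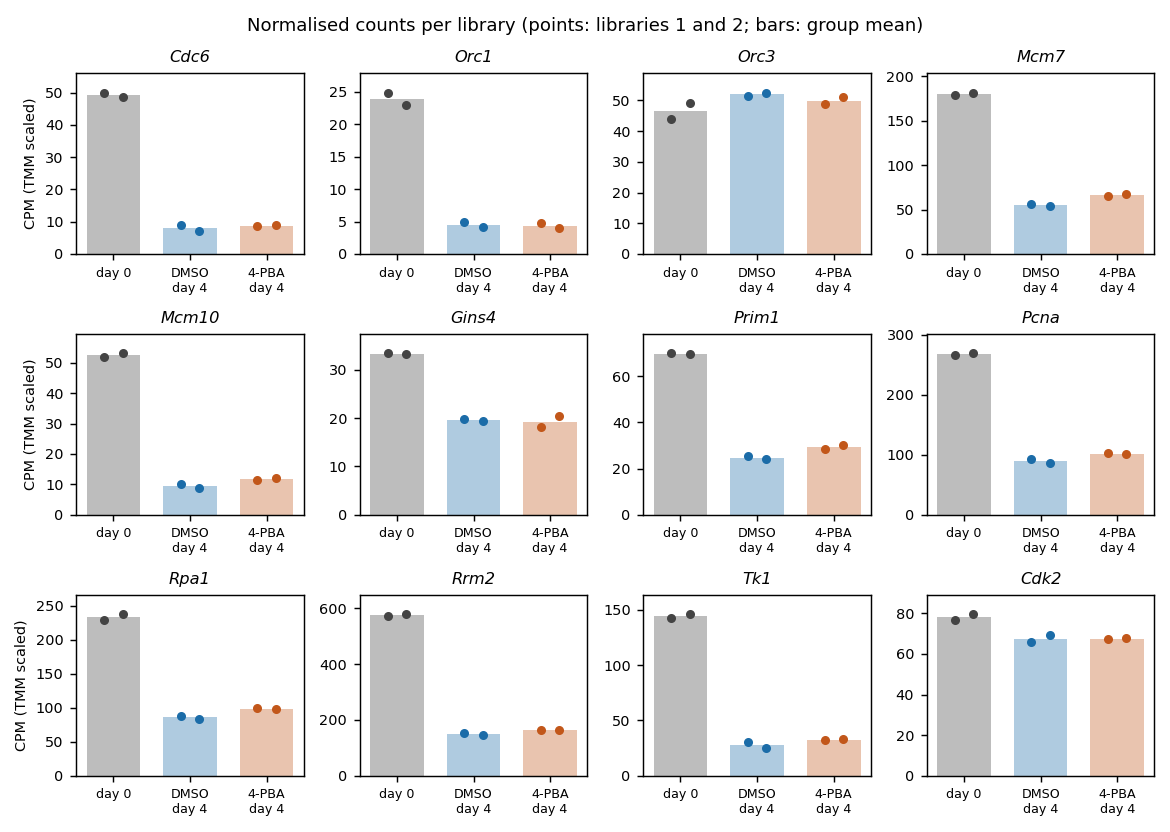
TMM-scaled CPM (vertical axes, from 0) of 12 genes in each library; points are libraries 1 and 2 of a group and bars are group means. The DMSO mean of Cdc6 is 16.4% and that of Orc1 18.9% of day 0, while Orc3 and Cdk2 stay close to their day 0 level.

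Between 4-PBA and DMSO at day 4, many replication genes were somewhat higher with 4-PBA. edgeR called 18 of the 52 higher and 0 lower, against 2.13% and 2.78% of all tested genes, and the DESeq2 Wald test called 12 higher and 0 lower. An unadjusted p under 0.05 was reached by 32 of the 52, all of them higher, and by 8.15% of all tested genes in that direction; 0 were lower at that level. The 18 rises were small, from 0.13 for Rrm2 to 0.32 for Mcm10 on the log2 scale. The median over the 52 genes was 0.17, or 1.13-fold, beside 0.0021 over all tested genes, and 46 genes had a fitted value above 0. Both 4-PBA libraries lay above both DMSO libraries for 35 of the 52 and below them for 1, compared with 23% and 22.5% of all tested genes.

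These values depended on the libraries used. When 1 DMSO or 4-PBA library was left out, the median over all tested genes stayed between -0.0011 and 0.0045. The share of all tested genes called in those fits is not given here. Whether the change in the number of calls was particular to the 52 genes was not tested. Without DMSO replicate 1 the median was 0.23 and 29 genes were called higher. Without DMSO replicate 2 it was 0.10, 5 genes were called higher and 14 of the 52 had a fitted value below 0. Without 4-PBA replicate 1 or 2, 8 and 4 genes were called, with medians of 0.15 and 0.15. The calls kept without DMSO replicate 2 were those of Mcm2, Mcm7, Prim1, Pcna and Rpa1. Those kept without 4-PBA replicate 1 were the same 5 genes with Mcm4, Mcm10 and Fen1, and those kept without 4-PBA replicate 2 were Mcm6, Mcm7, Pcna and Rpa1. The summed myotube markers stood at 4842 and 5165 CPM with DMSO and at 4775 and 4883 CPM with 4-PBA, so they overlapped between the groups. The summed myoblast markers stood at 2924 and 2881 CPM with DMSO and were lower, without overlap, with 4-PBA, at 2779.7 and 2789 CPM. That sum had risen to 219.8% of its day 0 mean with DMSO, so it was not specific to undifferentiated cells. Of these 10 markers Des (-0.11 with SE 0.0258), Mymk (-0.17 with SE 0.0393) and Acta1 (-0.094 with SE 0.0282) were called lower with 4-PBA and Cdh15 (0.11 with SE 0.0288) higher. The part of these markers in the result for the replication genes was not tested.

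**Figure D4:**
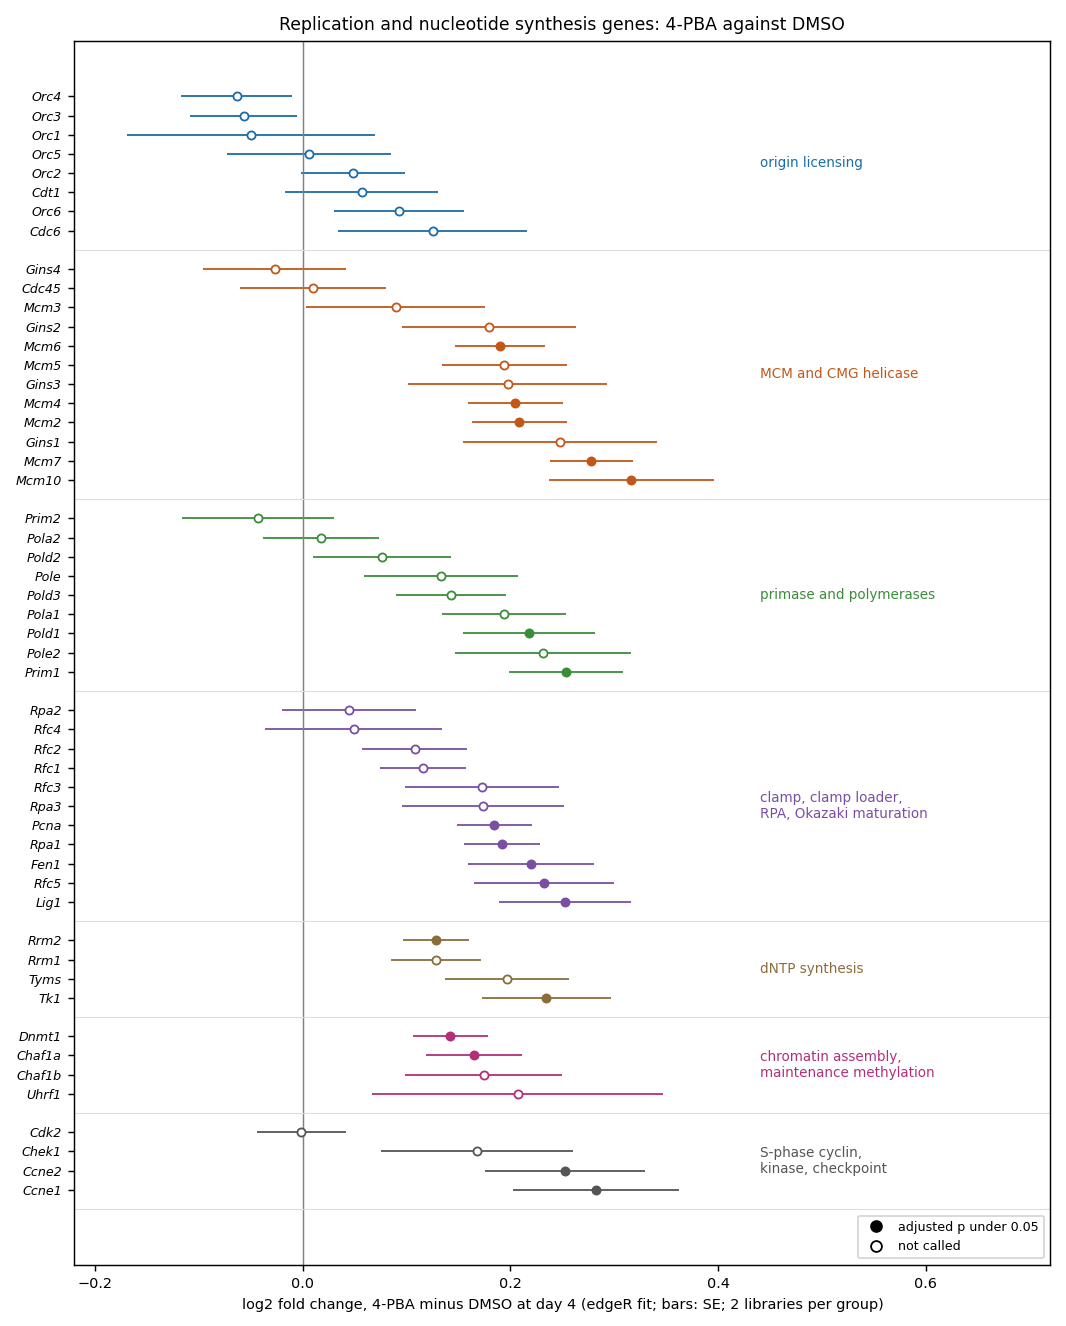
Log2 fold change of 4-PBA against DMSO at day 4 (horizontal axis) for the 52 genes, ordered within role groups; bars are standard errors of the edgeR fit on 2 libraries per group and filled points have an adjusted p under 0.05. The 18 filled points lie between 0.13 and 0.32, and none is among the 8 licensing genes.

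The calls were spread over 6 of the 7 role groups. None of the 8 licensing genes was called by edgeR or DESeq2 or had an unadjusted p under 0.05. In the other groups edgeR called 5 of 12 helicase genes higher, 2 of 9 primase and polymerase genes and 5 of 11 in the clamp group. It also called 2 of 4 in each of dNTP synthesis, chromatin assembly and S-phase control, against 2.13% of all tested genes. An unadjusted p under 0.05 was reached by 9 of 12, 5 of 9 and 9 of 11 genes of the first 3 of these groups. For the last 3 it was reached by 4 of 4, 3 of 4 and 2 of 4, against 8.15% of all tested genes for rises. The median log2 fold change was 0.027 for licensing genes and between 0.14 and 0.21 for the other 6 groups. The difference between role groups was not tested.

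In the helicase group the clearest rise was in Mcm7, at 179 and 182 CPM before differentiation, 56.5 and 53.6 in the DMSO libraries and 65.8 and 67.5 in the 4-PBA libraries. Both 4-PBA libraries lay above both DMSO libraries, and below day 0 (log2 change 0.28 with SE 0.0398, adjusted p 1.92e-05), and the log2 fold change was 0.31 and 0.24 without DMSO replicates 1 and 2. The overlap of its exons with Ap4m1 and Cops6 applies here too. Mcm10 had the largest rise of the 52 genes (log2 change 0.32 with SE 0.0798, adjusted p 0.0131) and was 0.20 and not called without DMSO replicate 2. Mcm2 (0.21 with SE 0.0457), Mcm4 (0.20 with SE 0.0455) and Mcm6 (0.19 with SE 0.0434) were also called higher. Without DMSO replicate 2 the calls of Mcm4 (0.13, adjusted p 0.0853) and Mcm6 (0.11, adjusted p 0.0974) were lost. Mcm5 (log2 change 0.19 with SE 0.0601, adjusted p 0.0784) and Mcm3 (log2 change 0.089 with SE 0.0865, adjusted p 0.714) were not called, and neither were the 4 GINS genes or Cdc45 (log2 change 0.0095 with SE 0.0705, adjusted p 0.970). Mcm3 and Cdc45 turned to -0.050 and -0.10 without DMSO replicate 2.

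Prim1 was the clearest of the polymerase group, at 69.8 and 69.7 CPM before differentiation, 25.3 and 23.97 in the DMSO libraries and 28.4 and 30.3 in the 4-PBA libraries (log2 change 0.25 with SE 0.0550, adjusted p 0.00368). Its 4-PBA libraries lay above its DMSO libraries. Pold1 was called higher too (log2 change 0.22 with SE 0.0636, adjusted p 0.0383), but was 0.13 and not called without DMSO replicate 2. Pola1, the catalytic subunit of polymerase alpha, just missed the threshold (log2 change 0.19 with SE 0.0596, adjusted p 0.0513). The other primase subunit, Prim2, stood at 42.8 and 41.8 CPM before differentiation, 20.2 and 17.3 in the DMSO libraries and 17.1 and 19.2 in the 4-PBA libraries, the groups at day 4 overlapping (log2 change -0.043 with SE 0.0736, adjusted p 0.851).

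Rpa1, the large RPA subunit, stood at 229 and 237 CPM before differentiation, 88.3 and 83.5 in the DMSO libraries and 98.7 and 97.4 in the 4-PBA libraries, with no overlap between the day 4 groups (log2 change 0.19 with SE 0.0365, adjusted p 8.56e-04). Pcna stood at 266 and 269 CPM before differentiation, 92.8 and 86.7 in the DMSO libraries and 103 and 101 in the 4-PBA libraries, likewise apart (log2 change 0.18 with SE 0.0361, adjusted p 0.00117). Without DMSO replicate 2 the log2 fold changes were 0.15 for Rpa1 and 0.14 for Pcna. Rpa1, Pcna and Mcm7 were called under each of the 12 alternatives run, Mcm2 and Prim1 under 11, Mcm4 and Mcm6 under 10, Mcm10, Rrm2 and Dnmt1 under 9, Fen1, Lig1 and Tk1 under 8, Pold1, Chaf1a and Ccne1 under 5, and Rfc5 and Ccne2 under 4. Lig1 (0.25 with SE 0.0636), Rfc5 (0.23 with SE 0.0675) and Fen1 (0.22 with SE 0.0605) were called higher, with adjusted p-values between 0.0258 and 0.0363. All 3 calls were lost without DMSO replicate 2, at 0.13, adjusted p 0.159 for Lig1, 0.15, adjusted p 0.279 for Rfc5 and 0.17, adjusted p 0.125 for Fen1. The exons of these 3 genes share bases with an opposite-strand gene, and those of Rpa1 with the same-strand gene Gm47300.

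In dNTP synthesis both Rrm2 (log2 change 0.13 with SE 0.0319, adjusted p 0.0116) and Tk1 (log2 change 0.23 with SE 0.0623, adjusted p 0.0340) were called higher, Tk1 exons overlapping Afmid on the opposite strand. Without DMSO replicate 2 both calls were lost, at 0.090, adjusted p 0.0901 for Rrm2 and 0.11, adjusted p 0.266 for Tk1, and without DMSO replicate 1 Tk1 stood at 0.36. Tyms (log2 change 0.20 with SE 0.0601, adjusted p 0.0504) and Rrm1 (log2 change 0.13 with SE 0.0433, adjusted p 0.101) were not called, although both 4-PBA libraries lay above both DMSO libraries for each of the 4 genes. For chromatin, Dnmt1 (log2 change 0.14 with SE 0.0360, adjusted p 0.0137) and Chaf1a (log2 change 0.16 with SE 0.0466, adjusted p 0.0307) were called higher, and neither was without DMSO replicate 2 (0.099, adjusted p 0.121 for Dnmt1 and 0.14, adjusted p 0.102 for Chaf1a). Uhrf1 had a similar value with a wide error (log2 change 0.21 with SE 0.140, adjusted p 0.609). Of the cyclins, Ccne1 stood at 41.3 and 39.6 CPM before differentiation, 11.1 and 9.72 in the DMSO libraries and 12.2 and 13.1 in the 4-PBA libraries (log2 change 0.28 with SE 0.0801, adjusted p 0.0316), and Ccne2 was called just under the threshold (log2 change 0.25 with SE 0.0769, adjusted p 0.0488); 4-PBA libraries lay above DMSO libraries for both. Without DMSO replicate 2 neither cyclin was called (0.19, adjusted p 0.283 for Ccne1 and 0.23, adjusted p 0.142 for Ccne2). The exons of Chaf1a and Ccne2 share bases with an opposite-strand gene.

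The genes with fitted values below 0 were Orc1 (-0.050 with SE 0.120), Orc3 (-0.057 with SE 0.0511), Orc4 (-0.064 with SE 0.0531), Gins4 (-0.027 with SE 0.0690), Prim2 and Cdk2 (-0.0016 with SE 0.0428). None was called, and only Orc3 had both 4-PBA libraries below both DMSO libraries. Orc1 stood at 24.9 and 22.98 CPM before differentiation, 4.93 and 4.11 in the DMSO libraries and 4.75 and 3.95 in the 4-PBA libraries. Its day 4 groups overlapped. Orc6 had the smallest p of the licensing genes, at 47.6 and 47.1 CPM before differentiation, 20.2 and 20.4 in the DMSO libraries and 20.8 and 22.5 in the 4-PBA libraries (log2 change 0.092 with SE 0.0627, adjusted p 0.510). Cdc6 (log2 change 0.12 with SE 0.0906, adjusted p 0.549) and Cdt1 (log2 change 0.057 with SE 0.0734, adjusted p 0.790), which were among the furthest fallen by day 4, were not called either. Cdc6 was called higher without DMSO replicate 1 (0.29, adjusted p 0.0479) and stood at -0.038 without DMSO replicate 2, where Cdt1 stood at -0.044.

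Against day 0, cells given 4-PBA showed nearly the same fall as cells given DMSO. Here edgeR and DESeq2 each called 51 of 52 genes lower and 0 higher, with 0 higher at an unadjusted p under 0.05 as well; edgeR called 32.4% and 33.2% of all tested genes lower and higher. Orc3 was the gene not called. The median log2 fold change was -1.47, a 2.77-fold fall, and 43 genes fell by more than 2-fold, against 8.46% of all tested genes. The 2 comparisons with day 0 share the day 0 libraries, so their values are given side by side and not as independent evidence. Mcm7 kept 30.5% of its day 0 mean with DMSO and 37.00% with 4-PBA, Pcna 33.5% and 38.1%, Rrm2 26.1% and 28.5%, Cdc6 16.4% and 17.8%, and Orc1 18.9% and 18.2%.

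Summed by role, the licensing genes stood at 397 and 398 CPM before differentiation, 208 and 208 in the DMSO libraries and 206 and 210.0 in the 4-PBA libraries. The helicase genes stood at 1323 and 1339 CPM before differentiation, 391 and 348 in the DMSO libraries and 416 and 422 in the 4-PBA libraries. The day 4 groups overlapped in the licensing sum and not in the helicase sum. The clamp group kept 37.5% of its day 0 sum with DMSO and 42.1% with 4-PBA, the polymerase group 36.97% and 40.5%, and dNTP synthesis 29.1% and 32.1%. Chromatin assembly genes kept 28.01% and 31.4%.

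**Figure D5:**
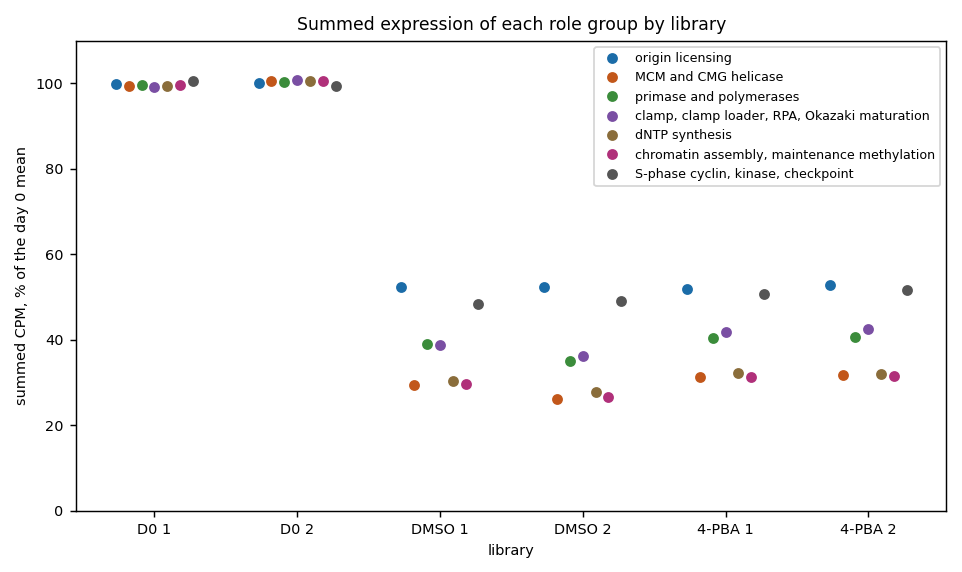
Summed CPM of each role group as a percent of its day 0 mean (vertical axis, from 0) in each of the 6 libraries (horizontal axis); each point is 1 library. The licensing genes lie near 52.4% in all 4 day 4 libraries, and the helicase genes are lower in DMSO replicate 2 than in the other day 4 libraries.

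Other genes of the pathway, not among the 52, were counted for comparison. Over all tested genes, 32.6% were called lower and 33.8% higher with DMSO against day 0. Between 4-PBA and DMSO, 2.13% of all tested genes were called higher and 2.78% lower. Of 36 further replication genes, 34 were called lower and 1 higher with DMSO against day 0 (median -1.30). With 4-PBA against DMSO, 30 of these 36 had a fitted value above 0 and 6 below (median 0.12). Both 4-PBA libraries lay above both DMSO libraries for 19 and below them for 0, against 23% and 22.5% of all tested genes. An unadjusted p under 0.05, in either direction, was reached by 15 of them and by 2908 of all 17433 tested genes. By adjusted p, 1 was called higher (2.78%, near the share of all tested genes). This was Cdc25a, the phosphatase that activates Cdk2 (log2 change 0.26 with SE 0.0680, adjusted p 0.0195). The count for this list was 12 (median 0.17) without DMSO replicate 1, and 0 both without 4-PBA replicate 1 and in a fit of the DMSO and 4-PBA libraries alone. Of 27 further genes of nucleotide synthesis, 23 were lower and 4 higher with DMSO (median -0.99). With 4-PBA against DMSO, 16 of them had a fitted value above 0 and 11 below (median 0.016). Both 4-PBA libraries lay above both DMSO libraries for 9 and below them for 4. By adjusted p, 1 was called higher (3.70%, near the share of all tested genes). It was Samhd1, which breaks down dNTPs (log2 change 0.15 with SE 0.0454, adjusted p 0.0402). No gene of this list was called higher with the DESeq2 Wald test, in the fit of the day 4 libraries alone, or without any one library other than DMSO replicate 1, where 4 were; without DMSO replicate 2, 2 were called lower. All 26 mitosis genes were lower with DMSO (median -1.92), and 10 were called higher with 4-PBA (median 0.20). The mitosis gene with the smallest p was Kif11, a spindle motor (log2 change 0.28 with SE 0.0569, adjusted p 0.00422). Like that of the replication genes, the count for mitosis depended on the libraries, with 26 calls and a median of 0.34 without DMSO replicate 1, and 3 calls and a median of 0.085 without DMSO replicate 2. It was 2 and 0 without 4-PBA replicates 1 and 2, and 23 with no filter on low counts. Differences between these lists were not tested.

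Of 28 genes that regulate replication genes, 19 were lower and 8 higher with DMSO. Between 4-PBA and DMSO, 2 were called higher and 4 lower, against 2.13% and 2.78% of all tested genes. Of the 28, 18 had a fitted value above 0 and 10 below (median 0.048). With 1 library left out, 0 to 7 were called higher and 3 to 5 lower. The lower ones were the cyclin D1 gene Ccnd1 (-0.29 with SE 0.0328), the transcription factor gene Myc (-0.33 with SE 0.0595), the G1 kinase gene Cdk6 (-0.18 with SE 0.0341) and the CDK inhibitor gene Cdkn1a (-0.16 with SE 0.0359), with adjusted p-values between 4.38e-07 and 0.00962. These 4 genes moved in the opposite direction to the 18 replication genes called between 4-PBA and DMSO. The 2 regulators called higher, Rbl1 of the retinoblastoma family and the CDK inhibitor gene Cdkn2c, moved in the same direction as those 18.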

How the data were processed

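Total RNA of 6 C2C12 samples was DNase-treated and sequenced as directional (strand-marked) libraries, per the labels' protocols, and all 6 carried batch number 1. The authors deposited 1 table of raw counts per gene symbol with 1 column per library, neither normalised nor pooled; per the submitters' processing notes the genome build was GRCm39, and the aligner, counter, annotation and use of strand are not given in the sources used here. The tests used edgeR 4.0.16 (R 4.3.3) on these counts: filterByExpr by group, TMM scaling, 1 mean per group over all 6 libraries, robust glmQLFit and glmQLFTest, with Benjamini-Hochberg adjustment over 17433 genes and a call at an adjusted p under 0.05. The standard error (SE) of a log2 change was taken as its absolute value over the root of the F statistic. The fit had 3 residual degrees of freedom. An exact permutation of 2 against 2 libraries cannot reach the 0.05 level, and the edgeR p-values borrow their estimate of spread from all genes and groups. The common coefficient of variation was 3.74%, and libraries of a group differed by more than sampling noise (chi-square per degree of freedom 3.83 to 7.00).

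The genes, role groups, other lists and naming rule were chosen with earlier results of these data known, so lists are described by counts and medians without a test. Values in every library are given for the largest and smallest change with DMSO and the smallest p with 4-PBA in each role group, and for genes against the common direction; other genes were added for their role in a complex. As alternatives, the fit was repeated with each library left out, with a replicate block, without the third group, without the filter (at least 1 count in all), with DESeq2 size factors and with unscaled library sizes, and the DESeq2 1.42.0 Wald test was run. Exon lengths and overlaps came from GENCODE M21, promoter windows from RefSeq (GRCm38.p6). The edgeR script was tested on simulated data. Figures were drawn with matplotlib 3.10.9.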

Additional observations from a re-analysis of the deposited data

How the results depend on the processing

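Calls of lower expression against day 0 stayed within 50 to 51 of 52 genes with DMSO and 50 to 51 with 4-PBA when 1 library was left out, and within 50 to 51 and at 51 under the other alternatives. Their medians ran from -1.72 to -1.54 and from -1.50 to -1.47 over the left-out libraries. The count between 4-PBA and DMSO was less stable: 18 genes became 10 when the fit held just the DMSO and 4-PBA libraries, 4 to 29 when 1 library was left out, and 12 with the DESeq2 Wald test, 20 with DESeq2 size factors, 20 with library size only and 22 with no filter. Shares of all tested genes called under these alternatives are not given here. Leaving out a library also leaves 1 group with a single library, assumed to vary like the others. The median of 4-PBA against DMSO was 0.10 to 0.23 over the left-out libraries and 0.17 to 0.18 otherwise. Under no alternative was any of the 52 genes called lower with 4-PBA. Same-numbered libraries of different groups had deviations from their group means whose correlations were -0.028 to -0.0031 over all tested genes and 0.026 to 0.19 over the 52 genes, not above 0.1 in every pair on either measure, so the numbers were not taken to pair them. A replicate block gave 15 calls, each among the 18, and medians of -1.64, 0.17 and -1.47 in the 3 comparisons.

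Of the genes with values in every library, the sign between 4-PBA and DMSO turned for Cdk2 with DESeq2 size factors (0.0014), with library size only (0.0078) and with the DESeq2 Wald test (0.0012). Over all 52 genes, with 1 library left out, this sign turned for Orc1 (-0.19 to 0.080), Orc2 (-0.013 to 0.11), Orc4 (-0.14 to 0.025), Orc5 (-0.079 to 0.087), Cdc6 (-0.038 to 0.29), Cdt1 (-0.044 to 0.16), Mcm3 (-0.050 to 0.24), Cdc45 (-0.10 to 0.12), Gins4 (-0.12 to 0.060), Pola2 (-0.013 to 0.047), Prim2 (-0.15 to 0.068), Pold2 (-0.030 to 0.19), Pole (-0.016 to 0.29), Rfc4 (-0.020 to 0.12), Rpa2 (-0.015 to 0.10) and Cdk2 (-0.040 to 0.039). Each range is over the 6 left-out libraries. None of these genes was called with all 6 libraries. The cause was not tested.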

Other observations

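The genes in these closing lines were chosen after their values were seen. Rrm2b, the small subunit of ribonucleotide reductase known from resting and stressed cells, rose with DMSO while its S-phase counterpart Rrm2 fell, standing at 31.2 and 32.8 CPM before differentiation, 37.7 and 38.96 in the DMSO libraries and 36.4 and 37.6 in the 4-PBA libraries (log2 change 0.26 with SE 0.0548, adjusted p 8.68e-05 against day 0). The ratio of Rrm2b to Rrm2 counts was 0.0543 and 0.0566 in the day 0 libraries, 0.244 and 0.266 in those with DMSO and 0.220 and 0.230 in those with 4-PBA. It was higher in every day 4 library than at day 0.

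Among the regulators, Rb1, the retinoblastoma gene, rose with DMSO (log2 change 1.49 with SE 0.0458, adjusted p 2.48e-23), and its relative Rbl1 fell (log2 change -1.60 with SE 0.0523, adjusted p 1.92e-24). Of the activating E2F genes, E2f1 (log2 change -0.94 with SE 0.0506, adjusted p 3.65e-18) and E2f3 (log2 change -0.59 with SE 0.0496, adjusted p 1.02e-12) fell and E2f2 rose, standing at 49.7 and 47.99 CPM before differentiation, 90.6 and 86.1 in the DMSO libraries and 82.9 and 86.3 in the 4-PBA libraries (log2 change 0.86 with SE 0.0436, adjusted p 8.26e-19). Between 4-PBA and DMSO, Rbl1 (log2 change 0.20 with SE 0.0547, adjusted p 0.0213) and the CDK inhibitor gene Cdkn2c (log2 change 0.27 with SE 0.0582, adjusted p 0.00365) were called higher, and E2f1, E2f2, E2f3 and Rb1 were not called. Neither Rbl1 nor Cdkn2c was called when DMSO replicate 2 or either 4-PBA library was left out.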
